A study of Homo sapiens with 9 samples.

Results

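The 16 loci described here are the long intergenic noncoding RNA (LINC) loci that were expressed in cultures resembling neural crest, all made from H9, an established line of human embryonic stem cells. They were chosen by name (LINC followed by a number) and by level: an FPKM, the fragment count scaled to transcript length and library size, of 1 or more in at least 3 of 9 libraries, with a quantification status of OK in all of them. They are 16 of 123 LINC loci and of 25593 loci in the tables. Differentiation lasted 6 days for all cells, in defined medium to which SB431542 had been added at 10 µM. SB431542 is a small molecule that blocks the kinase activity of the TGF-β, Activin and Nodal receptors. A sort for high CD271, the neurotrophin receptor, followed, and the cells were expanded at 5% oxygen on fibronectin. The protocol sorts cells without CD73, whereas the cell type label gives CD73 as positive. Cells of group F_FSB were expanded for 4 passages with FGF2 and SB431542 and then kept for 3 passages in FGF2 alone. Cells of group FSB received 5 to 10 ng/ml FGF2 with 3 to 5 µM SB431542 throughout expansion. Cells of group F received 5 to 10 ng/ml FGF2 alone. Each group had 3 cultures, which the design text calls biological replicates, harvested at passage 6 to 7. All 9 cultures came from 1 cell line, every group had met SB431542 during differentiation, and no library from before expansion was used here.

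Long noncoding RNAs are transcribed and often spliced like messenger RNAs but are not known to be translated. Some act in the nucleus on chromatin or splicing, some act in the cytoplasm, and some are mainly the primary transcripts from which microRNAs are cut. A LINC number is a placeholder name: it is replaced when a function, a host role or a translated reading frame becomes known. A LINC symbol in an older gene table can therefore stand for a locus that current annotation treats as a protein-coding gene.

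The tables hold no fragment counts, so depth is known only in relative terms. A rough estimate from the lowest values of olfactory receptor genes put F_FSB replicate 2 at 59.5% of the deepest library and the 8 others at 82.7% to 100%. It rested on only 2 to 8 such genes per library. All loci together summed to 506146 FPKM in F_FSB replicate 2 and to 361026 to 395596 FPKM in the 8 others. The 16 loci together summed to between 57.4 and 84.3 FPKM per library. Of 10 neural crest markers, which together summed to 141 to 166 FPKM in F_FSB, 429 to 465 FPKM in FSB and 169 to 199 FPKM in F, FOXD3 stayed below 1 FPKM in every library and SOX10 exceeded 1 FPKM only in FSB replicate 3. PAX3 exceeded 1 FPKM only in FSB replicate 3 (3.63 FPKM) and F_FSB replicate 2 (1.49 FPKM). NGFR, TFAP2A, TWIST1 and ETS1 passed as higher in FSB than in F, and SNAI2, SOX9 and TFAP2B did not pass. The 6 ectomesenchyme markers summed to 7550 to 10743 FPKM in F_FSB, 3150 to 3344 FPKM in FSB and 8186 to 8889 FPKM in F. The collagen genes COL1A1 and COL1A2 made up most of that difference, with PDGFRA also lower in FSB than in F. VIM, PRRX1 and PDGFRB did not pass in FSB minus F and had slightly higher means in FSB. The 3 blood markers summed to 1.98 to 8.71 FPKM in F_FSB, 1.103 to 1.29 FPKM in FSB and 5.67 to 16.7 FPKM in F, nearly all of it CD34, with PTPRC at most 0.0671 FPKM and HBG1 at 0 in all 9 libraries. The 5 pluripotency markers summed to 1.48 to 4.11 FPKM in F_FSB, 6.70 to 11.2 FPKM in FSB and 1.34 to 6.31 FPKM in F, and in FSB nearly all of this was DPPA4, at 6.51, 8.02 and 10.6 FPKM. POU5F1 was at most 0.141 FPKM in FSB and 0.110 FPKM in F, but reached 1.15 FPKM in F_FSB replicate 2. NANOG and TDGF1 stayed below 1 FPKM in all 9 libraries. The neuron markers summed to 109 to 148 FPKM in F_FSB, 93.8 to 138 FPKM in FSB and 57.2 to 105 FPKM in F, mostly TUBB3, with ELAVL4 at 0 in all 9 libraries. The epithelium markers summed to 78.4 to 187 FPKM in F_FSB, 107 to 202 FPKM in FSB and 35.4 to 112 FPKM in F. Of these, KRT8 passed as higher in FSB than in F (3.05-fold, adjusted p = 0.0334 with limma). KRT18 did not pass (adjusted p = 0.148 with limma), and EPCAM and CDH1 stayed below 1 FPKM in every library. The endothelium markers summed to 1.35 to 5.05 FPKM in F_FSB, 3.83 to 4.66 FPKM in FSB and 2.50 to 5.51 FPKM in F. Within them CDH5 was higher in FSB, at 3.43 FPKM on average against 0.143 FPKM in F, and TEK was lower, at 0.131 FPKM in FSB against 3.40 FPKM in F. The part of these differences in the results below was not tested, and in these bulk libraries fewer cells of a kind and less RNA per cell cannot be told apart.

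Current annotation names many of the 16 loci differently. GENCODE release 44 on GRCh37 gives 5 of them as protein-coding genes and 11 as long noncoding RNAs, and 10 of the 16 carry another name there. The coding ones are LINC00085 (SPACA6, a sperm membrane protein needed for fertilization), LINC00087 (SMIM10L2B, a predicted small membrane protein), LINC00094 (BRD3OS, on the strand opposite the chromatin reader BRD3), LINC00116 (MTLN, the mitochondrial micropeptide mitoregulin) and LINC00341 (SYNE3, the nuclear envelope protein nesprin-3). Among the noncoding ones, LINC00152 is CYTOR, LINC00263 is OLMALINC, LINC00346 is PRECSIT, LINC00476 is ERCC6L2-AS1 and LINC00478 is MIR99AHG. The 16 loci lie on 12 chromosomes, 10 on the plus strand and 6 on the minus strand.

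Both loci with a known link to microRNA clusters are shown first, because the largest fold change in mean FPKM among the 16 was at one of them. On GRCh37, LINC00478 spans chr21:17442842-17982094 (plus strand), and the tables place MIR99A, MIRLET7C and MIR125B2 inside it. LINC00085 spans chr19:52196593-52208443 (plus strand) and begins at the base after MIR125A, with MIRLET7E 475 bp and MIR99B 658 bp upstream. In GENCODE the gene SPACA6 is longer, chr19:52191599-52215640, and MIR99B, MIRLET7E and MIR125A all lie inside that span. MicroRNAs recognise their targets mainly through the seed, bases 2 to 8, so the mature forms are given below by cluster with the seed in capitals (RefSeq, GRCh38.p14).
hsa-miR-99a-5p, chr21:16539101-16539122, plus strand: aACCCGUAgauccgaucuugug
hsa-let-7c-5p, chr21:16539838-16539859, plus strand: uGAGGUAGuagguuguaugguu
hsa-miR-125b-5p, chr21:16590253-16590274, plus strand: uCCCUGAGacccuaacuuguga
hsa-miR-99b-5p, chr19:51692618-51692639, plus strand: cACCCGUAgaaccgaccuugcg
hsa-let-7e-5p, chr19:51692793-51692814, plus strand: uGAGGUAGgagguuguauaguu
hsa-miR-125a-5p, chr19:51693268-51693291, plus strand: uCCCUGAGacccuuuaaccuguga
The clusters carry the same 3 seeds in the same order: ACCCGUA of the miR-99/100 family, GAGGUAG of let-7 and CCCUGAG of miR-125. Mature microRNAs were not measured in these libraries, so the values below are those of the long transcripts.

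A second set of sequences shows why the level of the most abundant of the 16 loci is uncertain. LINC00152 spans chr2:87754974-87821037 on GRCh37, and 80.1% of its annotated exonic bases have a copy elsewhere in the genome at 95% identity or more. Its longest copy lies within LOC541471, on the same chromosome, in an alignment of 946 bp at 98.94% identity. In the 60-base stretch below, read from GRCh37, capitals mark the 2 bases that differ, and the other bases are identical.
LINC00152, chr2:87817073-87817132, plus strand: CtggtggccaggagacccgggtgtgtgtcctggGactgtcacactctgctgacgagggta
LOC541471, chr2:112190790-112190849, minus strand: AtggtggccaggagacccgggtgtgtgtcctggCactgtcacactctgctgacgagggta
Reads from such stretches could be assigned to either locus or split between both. LINC00342 and LINC00265 had copies over 99.5% and 51.8% of their exonic bases, and their values carry the same uncertainty. For the 13 other loci, copies covered less than 50% of the exonic bases.

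The 16 loci were low to moderate in level. LINC00152, which is known as a mostly cytoplasmic RNA, had the highest mean over the 9 libraries, 24.6 FPKM. LINC00263 followed at 6.76 FPKM, LINC00341 at 6.62 FPKM and LINC00094 at 5.72 FPKM, and each of these spanned a range over libraries that overlapped the other 2. Of the 16, 11 reached 1 FPKM in all 9 libraries. LINC00085 and LINC00173 were below 1 FPKM in every FSB library and passed the level rule through F_FSB and F libraries. The lowest of the 16, LINC00173, had 0.298, 1.24 and 1.41 FPKM in F_FSB, 0.919, 0.264 and 0.369 FPKM in FSB and 0.429, 1.69 and 0.165 FPKM in F. Cufflinks gave an interval around each FPKM, and for LINC00173 the half-width of that interval was 63.1% to 193% of the value. The median half-widths of the 15 other loci ran from 9.43% to 41.5%. The largest was that of LINC00467, whose half-widths were 23.6% to 65.0% of the value. The intervals were not always symmetric: for LINC00173 in FSB replicate 2 it ran from 0 to 1.02 FPKM around 0.264 FPKM. For LINC00263 in F replicate 2 it ran from 6.49 to 9.54 FPKM around 9.40 FPKM. For LINC00467 in FSB replicate 3 it ran from 3.20 to 5.79 FPKM around 5.48 FPKM.

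**Figure D1:**
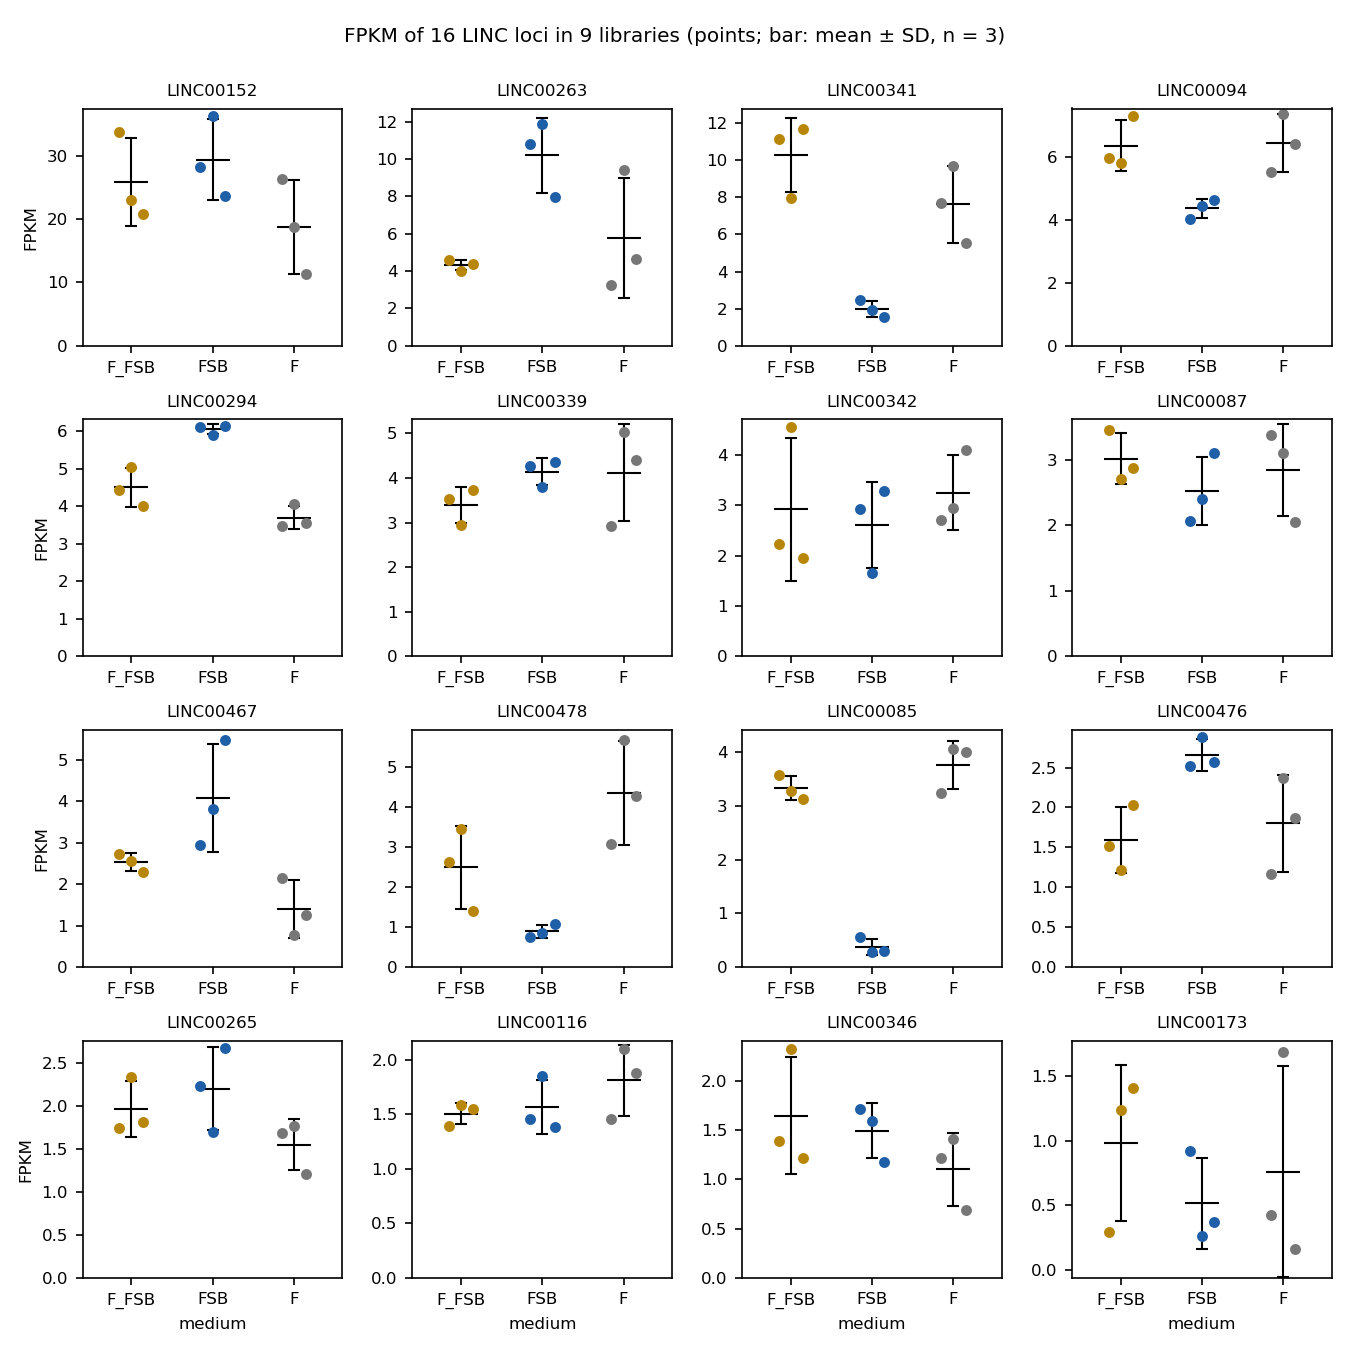
FPKM of each of the 16 loci (panels, each with its own linear axis) in the F_FSB, FSB and F libraries. Points are libraries and bars are the mean ± SD (n = 3). The FSB libraries lie below all others for LINC00085, LINC00094, LINC00341 and LINC00478, and above all others for LINC00294, LINC00467 and LINC00476.

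The comparison of FSB with F asks what changed where the inhibitor was kept in the expansion medium. LINC00467 and LINC00294 were higher in FSB, and LINC00085, LINC00341, LINC00478 and LINC00094 were lower. The decreases reached 10.0-fold and the increases 2.93-fold in mean FPKM. The other 10 loci did not pass the threshold. In this comparison 41.9% of all 13216 tested loci passed limma's adjusted threshold of 0.05, 28.5% higher and 13.4% lower, so 6 of 16 is near the share of all loci. The median log2 change was -0.05 over the 16 loci and 0.14 over all tested loci. The shift of all loci depends on the scaling: with median ratios it was 0.00 and the calls over all loci were 2424 higher and 2461 lower, against 3763 higher and 1773 lower as deposited, while the 16 loci gave 2 higher and 4 lower under both. The libraries of FSB and F did not overlap for 7 of the 16 loci, 3 higher and 4 lower in FSB, and for 57.9% of all tested loci, 38.7% higher and 19.2% lower.

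LINC00085 changed most. It had 0.550, 0.287 and 0.292 FPKM in FSB, against 3.24, 4.05 and 3.99 FPKM in F. Every FSB library was far below every F library, and the mean was 10.0-fold lower in FSB. On the log2(FPKM + 1) scale the change was -1.79 ± 0.12 (SE, adjusted p = 7.41e-05 with limma). That scale understates the change of such low values: with a pseudocount of 0.1 in place of 1 the log2 change was -3.06. The locus is annotated as part of SPACA6, with 972 bp of coding sequence inside it, and its nearest other coding gene, the hyaluronan synthase HAS1, was at most 0.0397 FPKM in any library.

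LINC00478, the host transcript of miR-99a, let-7c and miR-125b-2, moved the same way. It had 0.752, 0.845 and 1.08 FPKM in FSB, against 3.08, 5.68 and 4.29 FPKM in F. The groups did not overlap, and the mean was 4.87-fold lower in FSB. The log2 change was -1.47 ± 0.25 (SE, adjusted p = 0.00294 with limma). Another host of the same 3 microRNA families, MIR100HG, carries MIR100, MIRLET7A2 and MIR125B1. It is not a LINC symbol and was chosen after its values were seen. MIR100HG had 5.50, 6.29 and 8.58 FPKM in FSB, against 36.9, 39.1 and 46.9 FPKM in F, a log2 change of -2.44 ± 0.23 (SE). It was the most abundant of these 3 loci, and its groups were also separate. LIN28A and LIN28B, which encode proteins known to block the maturation of let-7, were likewise chosen after their values were seen and are given as levels only. LIN28A had 78.9, 74.3 and 85.4 FPKM in FSB, against 0.0142, 0.0188 and 0 FPKM in F, and LIN28B had 62.4, 67.7 and 51.4 FPKM in FSB, against 4.30, 0.524 and 0.286 FPKM in F.

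**Figure D2:**
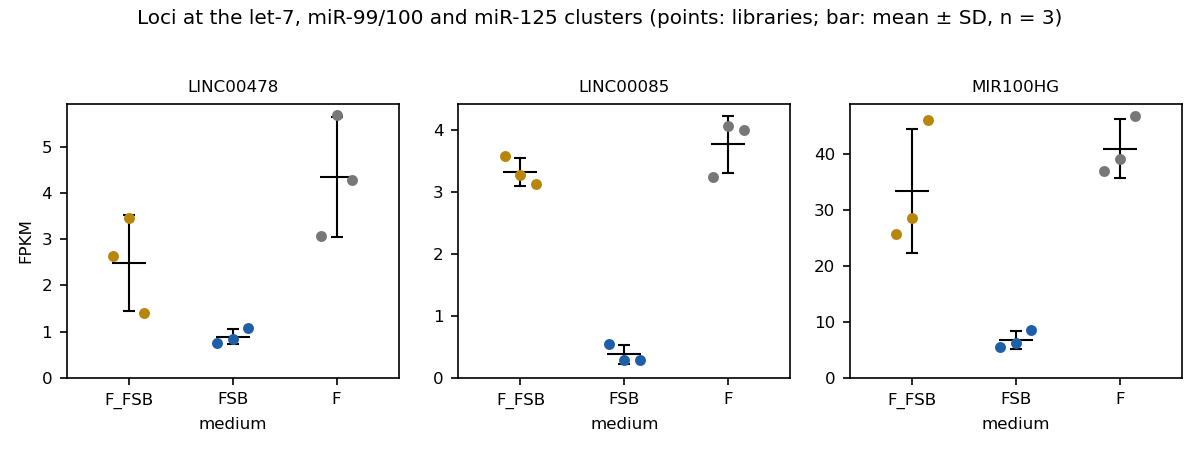
FPKM (linear axes, each from 0) of LINC00478, LINC00085 and MIR100HG in F_FSB, FSB and F. Points are libraries, and bars are the mean ± SD (n = 3). In each panel the 3 FSB libraries lie below all other libraries.

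LINC00341 is a stretch of a coding gene rather than a separate noncoding one in current annotation. It spans chr14:95873603-95876427 on GRCh37 (minus strand), and 100% of that span is untranslated sequence at the 3′ end of SYNE3 in GENCODE. It had 2.45, 1.92 and 1.57 FPKM in FSB, against 7.68, 9.69 and 5.52 FPKM in F. The FSB libraries all lay below the F libraries, and the mean was 3.85-fold lower in FSB. The log2 change was -1.52 ± 0.21 (SE, adjusted p = 0.00126 with limma). The tables list the rest of SYNE3 as C14orf49, 7403 bp away, which had 2.62, 2.42 and 2.17 FPKM in FSB, against 7.24, 8.46 and 5.23 FPKM in F. Its log2 change was -1.21 ± 0.17 (SE, adjusted p = 0.00131 with limma). Both pieces of SYNE3, which links the nuclear envelope to intermediate filaments, were thus lower in FSB, and they are not independent measurements of 2 genes.

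The 3 remaining loci now annotated as coding changed less or did not pass. LINC00094 (BRD3OS) had 4.02, 4.45 and 4.62 FPKM in FSB, against 5.53, 7.38 and 6.41 FPKM in F. The groups did not overlap, with a log2 change of -0.47 ± 0.12 (SE, adjusted p = 0.0167 with limma). The call did not hold without F replicate 2 (adjusted p = 0.0536 with limma) or without FSB replicate 1 (adjusted p = 0.0605 with limma). Its span overlaps that of BRD3 on the other strand, whose exons share 22.1% of its exonic bases, and reads of both strands may have been counted together. LINC00116, which encodes mitoregulin, had 1.46, 1.85 and 1.39 FPKM in FSB, against 1.46, 2.096 and 1.88 FPKM in F. Its log2 change was -0.13, with a 95% interval from -0.42 to 0.16. LINC00087 (SMIM10L2B) averaged 2.52 ± 0.522 FPKM in FSB and 2.84 ± 0.697 FPKM in F (SD, n = 3 each), with a 95% interval of the log2 change from -0.51 to 0.27.

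The increases were among the loci still annotated as noncoding. LINC00467, an RNA studied in neuroblastoma and other cancers, spans chr1:211556097-211605877 (plus strand, GRCh37). It had 2.94, 3.81 and 5.48 FPKM in FSB, against 2.15, 0.777 and 1.24 FPKM in F. All FSB libraries were above all F libraries, and the log2 change was 1.095 ± 0.24 (SE, adjusted p = 0.00817 with limma). LINC00294, a single-exon locus at chr11:33097696-33101000 (plus strand, GRCh37), had the tightest FSB values. It had 6.11, 5.92 and 6.16 FPKM in FSB, against 3.48, 4.06 and 3.57 FPKM in F. The groups were separate, and the log2 change was 0.59 ± 0.10 (SE, adjusted p = 0.00236 with limma).

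Among the loci that did not pass, LINC00263 came closest. This RNA, named OLMALINC for its link to oligodendrocyte maturation, spans chr10:102133333-102148111 (plus strand, GRCh37). It had 10.8, 11.9 and 7.98 FPKM in FSB, against 3.25, 9.40 and 4.63 FPKM in F. F replicate 2 lay within the FSB range, and the log2 change of 0.82 ± 0.30 (SE) had an adjusted p of 0.0562 with limma. Without that library the log2 change was 1.18 (adjusted p = 0.00443 with limma). LINC00152 (CYTOR) had 28.2, 36.2 and 23.6 FPKM in FSB, against 26.3, 18.7 and 11.4 FPKM in F. The groups overlapped, and the log2 change of 0.67 had a 95% interval from -0.03 to 1.36. Its near-identical partner LOC541471, named after its values were seen, had 38.0, 43.1 and 30.3 FPKM in FSB, against 32.9, 30.1 and 22.4 FPKM in F, a log2 change of 0.37 with a 95% interval from -0.15 to 0.90. LINC00476, antisense to the repair gene ERCC6L2, had 2.52, 2.89 and 2.56 FPKM in FSB, against 1.17, 2.37 and 1.86 FPKM in F. Its groups did not overlap, but the log2 change of 0.41 had an adjusted p of 0.105 with limma. LINC00173, LINC00265, LINC00339, LINC00342 and LINC00346 also had overlapping groups.

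The comparison of F_FSB with FSB asks what changed where the inhibitor was taken away after 4 passages. LINC00341, LINC00085, LINC00478 and LINC00094 were higher in F_FSB, and LINC00263 and LINC00294 were lower. In this comparison 41.8% of all tested loci passed limma's adjusted threshold, 13.7% higher and 28.2% lower, so 6 of 16 is again near the share of all loci. The median log2 change was 0.02 over the 16 loci and -0.13 over all tested loci. With median ratios the calls over all loci were 2505 higher and 2524 lower, against 1805 higher and 3722 lower as deposited, and 4 of the 16 loci were higher and 1 lower. The libraries did not overlap for 9 of the 16 loci, 4 higher and 5 lower in F_FSB, and for 55.8% of all tested loci, 19.2% higher and 36.6% lower. This comparison shares the FSB libraries with the one before, so values that were high or low there weigh on both.

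LINC00341 had 11.1, 7.98 and 11.7 FPKM in F_FSB, against 2.45, 1.92 and 1.57 FPKM in FSB. Every F_FSB library was above every FSB library, with a log2 change of 1.91 ± 0.21 (SE, adjusted p = 0.000508 with limma). C14orf49, the rest of SYNE3, had 10.1, 7.54 and 10.2 FPKM in F_FSB, against 2.62, 2.42 and 2.17 FPKM in FSB, a log2 change of 1.59 ± 0.17 (SE). LINC00085 had 3.57, 3.27 and 3.13 FPKM in F_FSB, against 0.550, 0.287 and 0.292 FPKM in FSB. The mean was 8.83-fold higher in F_FSB, with a log2 change of 1.66 ± 0.12 (SE, adjusted p = 0.00012 with limma). The calls for LINC00341 and LINC00085 held under every alternative run, in this comparison and in FSB minus F. For LINC00085 the level rule bears on both comparisons, because it passed through F_FSB and F libraries alone.

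The calls for the 4 other loci of this comparison were less stable. LINC00478 had 2.63, 3.46 and 1.40 FPKM in F_FSB, against 0.752, 0.845 and 1.08 FPKM in FSB. The groups were separate, but F_FSB replicate 3 lay close to the FSB libraries, and the log2 change of 0.84 ± 0.25 (SE) had an adjusted p of 0.0285 with limma. Leaving out FSB replicate 1 or 2 or F_FSB replicate 1 or 2 ended this call, with adjusted p-values of 0.0749 to 0.0855 with limma. MIR100HG, chosen after its values were seen, had 25.6, 28.6 and 46.1 FPKM in F_FSB, against 5.50, 6.29 and 8.58 FPKM in FSB. Its log2 change was 2.12 ± 0.23 (SE). LIN28A had 0.0136, 0.0529 and 0.0239 FPKM in F_FSB, against 78.9, 74.3 and 85.4 FPKM in FSB, and LIN28B had 8.67, 5.06 and 2.31 FPKM in F_FSB, against 62.4, 67.7 and 51.4 FPKM in FSB.

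LINC00263 had 4.57, 4.02 and 4.36 FPKM in F_FSB, against 10.8, 11.9 and 7.98 FPKM in FSB. The groups did not overlap, with a log2 change of -1.06 ± 0.30 (SE, adjusted p = 0.0216 with limma), and the call was lost without FSB replicate 1 or 2 or without F_FSB replicate 2 or 3 (adjusted p = 0.0518 to 0.0754 with limma). LINC00294 had 4.44, 5.06 and 4.02 FPKM in F_FSB, against 6.11, 5.92 and 6.16 FPKM in FSB. All F_FSB libraries were lower, with a log2 change of -0.36 ± 0.10 (SE, adjusted p = 0.0171 with limma). Under median ratios the change of LINC00294 was -0.23 (adjusted p = 0.078 with limma), and it also missed the threshold without FSB replicate 1 or F_FSB replicate 3 (adjusted p = 0.054 and 0.0521 with limma). LINC00094 had 5.98, 5.80 and 7.30 FPKM in F_FSB, against 4.02, 4.45 and 4.62 FPKM in FSB, a log2 change of 0.45 ± 0.12 (SE, adjusted p = 0.0181 with limma). That call was lost without FSB replicate 1 or F_FSB replicate 3 (adjusted p = 0.0656 and 0.0555 with limma). LINC00467 had 2.72, 2.56 and 2.30 FPKM in F_FSB, against 2.94, 3.81 and 5.48 FPKM in FSB. Its groups did not overlap, but the log2 change of -0.50 had an adjusted p of 0.129 with limma. LINC00476 averaged 1.59 ± 0.412 FPKM in F_FSB and 2.66 ± 0.201 FPKM in FSB (SD, n = 3 each), with an adjusted p of 0.0536 with limma. LINC00339 was the ninth locus without overlap, at 3.40 ± 0.404 FPKM in F_FSB and 4.14 ± 0.306 FPKM in FSB (SD, n = 3 each), with an adjusted p of 0.296 with limma.

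**Figure D3:**
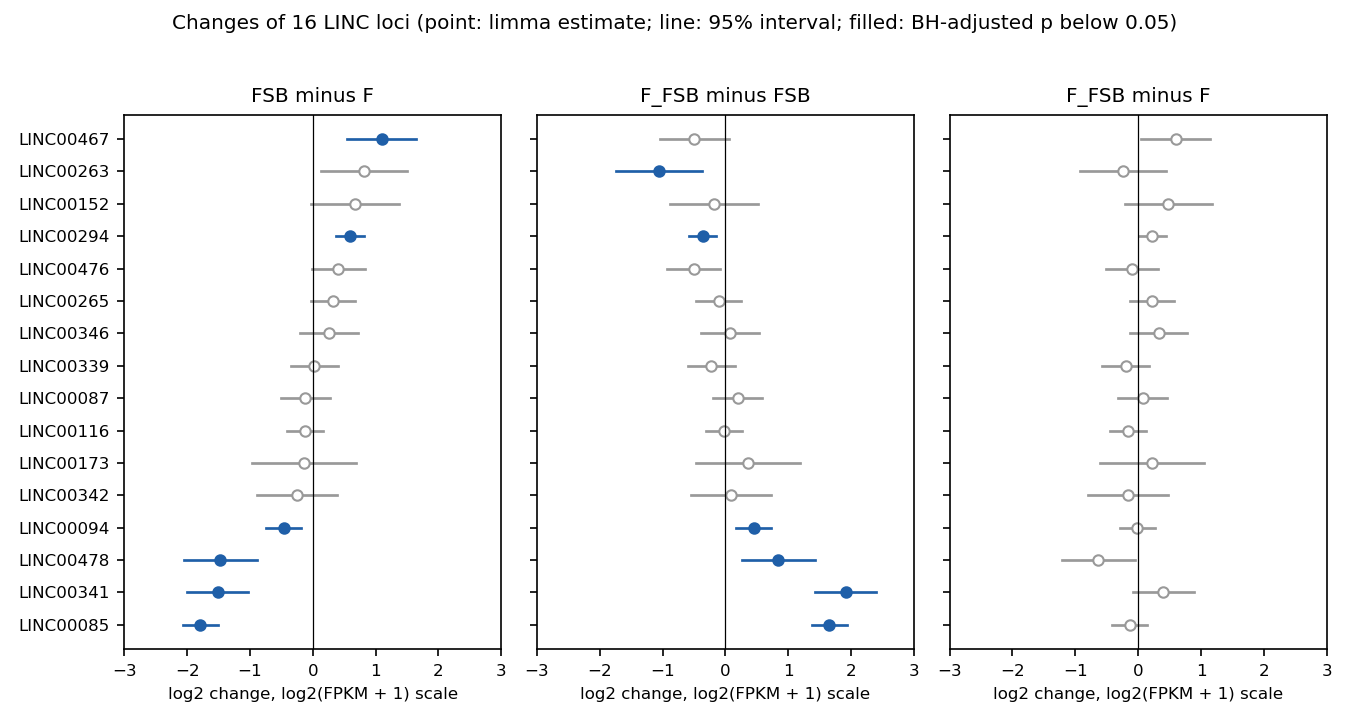
Log2 change on the log2(FPKM + 1) scale, with its 95% interval, of the 16 loci in each of the 3 comparisons. Filled points passed limma's adjusted threshold of 0.05: 6 loci in FSB minus F, 6 in F_FSB minus FSB and 0 in F_FSB minus F.

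The comparison of F_FSB with F asks whether cells that had been in the inhibitor for 4 passages differed from cells expanded without it. None of the 16 loci passed the threshold with limma, and 3 had an unadjusted p under 0.05. Over all tested loci, 0.00757% passed (1 locus) and 9.04% had an unadjusted p under 0.05 (1195 loci). These counts over all loci depended on single libraries. Without F replicate 1, 48 loci passed as higher and 29 as lower in F_FSB, and 1873 had an unadjusted p under 0.05. Without F replicate 3, 0 passed and 574 had an unadjusted p under 0.05. LINC00467 had 2.72, 2.56 and 2.30 FPKM in F_FSB, against 2.15, 0.777 and 1.24 FPKM in F. It was the one locus of the 16 whose libraries did not overlap, against 13.0% of all tested loci, 6.28% higher and 6.76% lower, with a log2 change of 0.60 (95% interval 0.05 to 1.15, adjusted p = 0.542 with limma). LINC00478 had 2.63, 3.46 and 1.40 FPKM in F_FSB, against 3.08, 5.68 and 4.29 FPKM in F, and its log2 change of -0.63 had a 95% interval from -1.21 to -0.05. LINC00294 had a log2 change of 0.23 with a 95% interval from 0.01 to 0.45. The intervals of the other 13 loci included 0, which does not show that they had the same level. For LINC00085 the interval ran from -0.41 to 0.14, and for LINC00341 from -0.09 to 0.88.

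The split by annotation was as follows. Of the 5 loci now annotated as coding, 0 were higher and 3 lower in FSB than in F, and 3 were higher and 0 lower in F_FSB than in FSB. LINC00094, one of these 3, lost its call in FSB minus F and in F_FSB minus FSB when single libraries were left out (adjusted p = 0.0536 to 0.0656 with limma). LINC00085, another of the 3, passed the level rule through F_FSB and F libraries alone. Of the 11 noncoding loci, 2 were higher and 1 lower in FSB than in F, and 1 was higher and 2 lower in F_FSB than in FSB. Over all tested loci, 28.5% were higher and 13.4% lower in FSB than in F, and 13.7% were higher and 28.2% lower in F_FSB than in FSB. The counts in each class are small, and the difference between both classes was not tested.

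The coding gene nearest to each locus was set beside it. For 12 of the 16 loci the neighbour was itself tested. Of the 5 called loci with a tested neighbour in FSB minus F, 3 neighbours passed in the same direction and 0 in the opposite one. The same count over all tested loci gave 31.2% in the same direction and 15.5% in the opposite one. In F_FSB minus FSB it was again 3 of 5 in the same direction and 0 in the opposite one. Over all tested loci these shares were 30.7% and 15.4%, and with 5 pairs no share is read further. The same-direction counts were not stable. In FSB minus F the count was 2 under each alternative that ended the call of TRAF5, the neighbour of LINC00467, except without F replicate 2, and in F_FSB minus FSB it was as low as 1 without FSB replicate 1 or without F_FSB replicate 3. One of the 3 pairs in both comparisons is LINC00341 with C14orf49, which are pieces of 1 gene. TRAF5, a signalling adaptor 7808 bp from LINC00467, had 8.02, 8.03 and 8.30 FPKM in FSB, against 6.87, 4.62 and 5.24 FPKM in F, a log2 change of 0.49 (adjusted p = 0.025 with limma). This call did not hold without F replicate 2 or 3 or without any one FSB replicate (adjusted p = 0.0642 to 0.0771 with limma). It was also lost with no filter on low values (0.0544), with scaling by median ratios (0.0728), with quantile normalization (0.0639) and with scaling to the same sum (0.0606), all adjusted p-values with limma. TCP11L1, 2586 bp from LINC00294 in the tables, had 12.1, 12.5 and 11.3 FPKM in FSB, against 8.47, 9.06 and 8.37 FPKM in F, a log2 change of 0.43 (adjusted p = 0.00244 with limma). In F_FSB minus FSB its call was lost with scaling by median ratios (adjusted p = 0.152 with limma) and with quantile normalization (adjusted p = 0.132 with limma). In GENCODE, TCP11L1 and CSTF3 overlap LINC00294. Exons of other genes on the opposite strand share 17.4% of its exonic bases, and those on its own strand share 0%. Reads of both strands may have been counted together.

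The largest change of a neighbour was at SCD, the desaturase that makes monounsaturated fatty acids, which lies 8744 bp from LINC00263. SCD had 813, 823 and 630 FPKM in FSB, against 131, 202 and 99.7 FPKM in F. The FSB libraries were all higher, with a log2 change of 2.43 ± 0.33 (SE, adjusted p = 0.00107 with limma). In F_FSB it had 158, 108 and 233 FPKM, and the log2 change of F_FSB minus FSB was -2.23 ± 0.33 (SE, adjusted p = 0.00142 with limma). Replicate 2 was the highest library for both LINC00263 and SCD in F and in FSB. In F_FSB, LINC00263 was highest in replicate 1 and SCD in replicate 3. No correlation of the 2 loci was tested. In other pairs only one partner passed in FSB minus F: FAM127B beside LINC00087 (log2 change 0.67) and ANKRD10 beside LINC00346 (log2 change 0.80) passed without their LINC locus, and LINC00478 and LINC00094 passed without USP25 and BRD3.

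**Figure D4:**
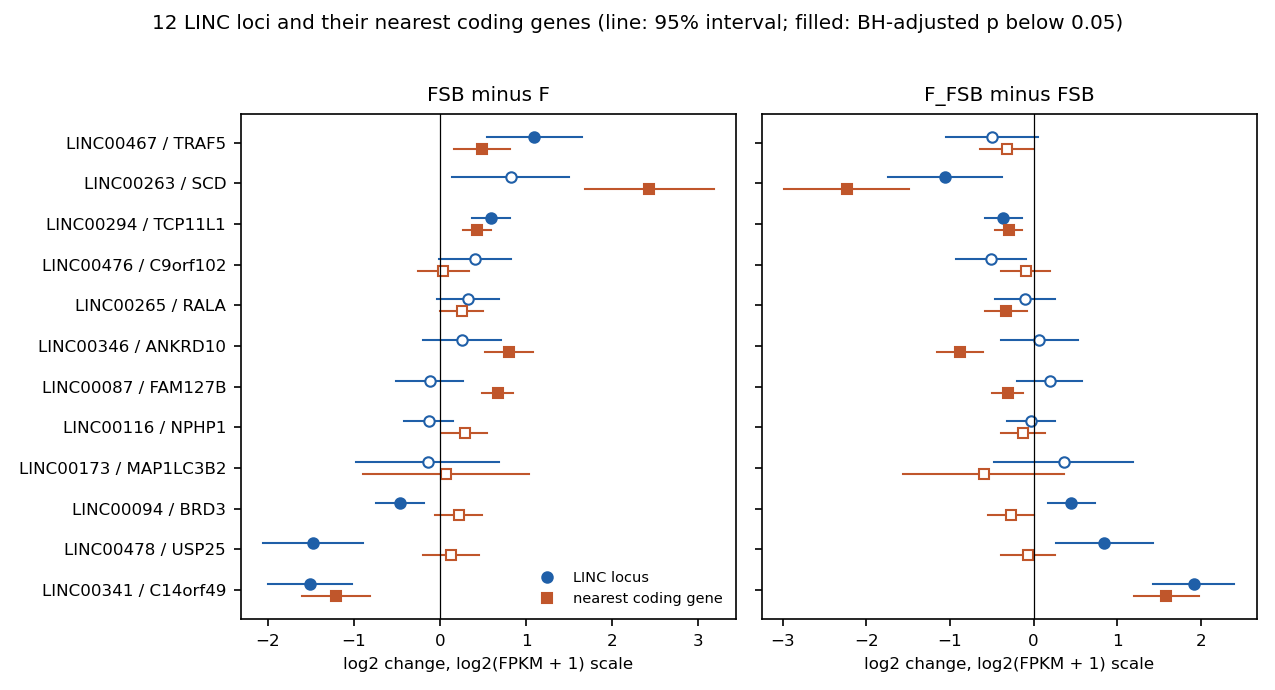
Log2 change on the log2(FPKM + 1) scale, with 95% intervals, of 12 LINC loci (circles) and their nearest coding genes (squares) in FSB minus F and F_FSB minus FSB. Filled symbols passed limma's adjusted threshold of 0.05, and LINC00341 with C14orf49 and LINC00294 with TCP11L1 are filled for both partners in both panels.

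Other long noncoding RNAs with their own names gave a frame for these values. Of 55 names on the list, 38 were in the tables and 22 passed the level rule. In FSB minus F, 5 were higher and 4 lower, and in F_FSB minus FSB 4 were higher and 7 lower, while 0 passed in F_FSB minus F. Over all tested loci 28.5% were higher and 13.4% lower in FSB minus F, 13.7% were higher and 28.2% lower in F_FSB minus FSB, and 0.00757% passed in F_FSB minus F. The 9 of 22 and 11 of 22 that passed lie near the 41.9% and 41.8% of all tested loci, so nothing particular to these RNAs is read from them. The largest increase in FSB over F was that of MIR17HG, host of the growth-promoting miR-17 to miR-92 cluster, at 2.87 ± 0.735 FPKM in FSB and 0.375 ± 0.0822 FPKM in F (SD, n = 3 each). The largest decrease was that of MIAT, at 0.0481 ± 0.00332 FPKM in FSB and 3.12 ± 1.34 FPKM in F (SD, n = 3 each). MIR17HG passed the level rule through FSB libraries alone, and MIAT through F_FSB and F libraries alone. The filter thus bears on both extremes, which are given as a description. SNHG1, a small nucleolar RNA host, averaged 30.4 ± 0.836 FPKM in FSB and 15.2 ± 0.680 FPKM in F (SD, n = 3 each). The abundant nuclear RNA MALAT1 averaged 11.5 ± 3.79 FPKM in FSB and 13.0 ± 3.22 FPKM in F (SD, n = 3 each) and did not pass. The count of 4 lower in FSB was the least stable of these and went down to 1 without F replicate 2, FSB replicate 1 or FSB replicate 2.

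The 107 other LINC loci stayed below the level rule. Of these, 38 were at 0 in all 9 libraries and 69 were detected in at least 1. The share that passed was 13.0% of LINC loci, against 51.8% of all other loci. Just inside the threshold lay LINC00173, LINC00346 and LINC00116, for which the third highest FPKM was 1.24, 1.59 and 1.85. Just outside lay LINC00327, LINC00174 and LINC00472, for which the third highest FPKM was 0.868, 0.690 and 0.656. LINC00327 had 0.414, 0.516 and 0.193 FPKM in F_FSB, 0.911, 1.22 and 0.868 FPKM in FSB and 0.231, 0.356 and 0.366 FPKM in F, and was not tested. LINC00461, which carries a miR-9 gene, was at 0 in every library except FSB replicate 3, where it had 0.0148 FPKM. LINC00086, annotated as the sister gene SMIM10L2A of LINC00087, ran from 0.169 to 0.438 FPKM over the 9 libraries.

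Promoters of 13 of the 16 loci were in the RefSeq set, which gives 250 bases before to 50 bases after each annotated start on GRCh38.p14. They were searched for CAGAC, which reads GTCTG on the other strand, the short element that SMAD proteins, the effectors of TGF-β receptors, can bind. Of the 13, 5 held it, against 45.3% of 35116 promoters. The AP-1 element TGACTCA, which reads TGAGTCA on the other strand, was in 3 of 13, those of LINC00152, LINC00339 and LINC00346, against 4.95% of all promoters, and no CAGAC match overlapped one. The LINC00263 and LINC00478 promoters are shown because these loci changed in opposite directions, with the CAGAC or GTCTG letters in capitals.
LINC00263 (OLMALINC), chr10:100373326-100373625, plus strand: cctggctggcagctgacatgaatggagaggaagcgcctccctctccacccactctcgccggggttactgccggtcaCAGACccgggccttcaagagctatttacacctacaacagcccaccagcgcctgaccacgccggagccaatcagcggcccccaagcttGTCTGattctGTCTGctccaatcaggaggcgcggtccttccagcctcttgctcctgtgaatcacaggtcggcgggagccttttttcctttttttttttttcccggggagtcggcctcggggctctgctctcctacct
LINC00478 (MIR99AHG), chr21:16070238-16070537, plus strand: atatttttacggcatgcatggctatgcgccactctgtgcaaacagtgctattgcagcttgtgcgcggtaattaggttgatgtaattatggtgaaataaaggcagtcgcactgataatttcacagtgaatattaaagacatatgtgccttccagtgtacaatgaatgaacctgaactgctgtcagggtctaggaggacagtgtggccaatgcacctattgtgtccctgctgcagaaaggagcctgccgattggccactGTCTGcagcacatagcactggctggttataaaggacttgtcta
The element occurs 3 times in the LINC00263 window and 1 time in that of LINC00478. Such a match describes the letters of the window and says nothing of binding.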

How the data were processed

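Total RNA of 9 H9-derived cultures was sequenced from strand-specific SureSelect libraries, per the labels' protocols. The authors deposited 1 Cufflinks gene table per library with values in FPKM and an interval for each, per the file headers. Per the submitters' processing notes, TopHat2 2.0.12, Cufflinks 2.1.1 and GRCh37 were used. The sources used here do not give the options or say whether the strand was used.

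Tables were joined by locus. Loci whose status was not OK in any library (95) were left out, and a locus was tested if 3 or more libraries had at least 1 FPKM (13216 loci). Group means of log2(FPKM + 1) were fitted to the 9 libraries jointly (limma 3.58.1, R 4.3.3), allowing the variance to follow the mean. The two-sided p-values were adjusted over all tested loci by Benjamini-Hochberg, with a threshold of 0.05. The fit was tested on simulated data. FPKM means, SDs and fold values are on the linear scale, and log2 changes on the log2(FPKM + 1) scale. The p-values measure the spread between cultures of 1 cell line.

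Loci were matched to GENCODE 44 on GRCh37, copies were searched with minimap2 2.31, and sequences came from RefSeq tables (GRCh38.p14) or the GRCh37 genome. Starts in the tables count from 0 and are given here from 1. Tables and figures were made in Python 3.11.15 (pandas 2.3.3, matplotlib 3.10.9).

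Named loci were up to 10 increases and 10 decreases per comparison among the called LINC loci, subsets by known role, the 10 of highest mean, 3 loci on each side of the level threshold, and the nearest coding genes of the 16 loci. The 16 loci, the lists and the tests were chosen with earlier results of these data known. Alternatives covered the pseudocount, the filter, the scaling, the trend, the libraries in the fit, a replicate block and each library left out.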

Additional observations from a re-analysis of the deposited data

How the results depend on the processing

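The directions of all called changes among the 16 loci were the same under every alternative run. The calls for LINC00085, LINC00341, LINC00467, LINC00294 and LINC00478 in FSB minus F held throughout. LINC loci lower in F_FSB than in FSB numbered 2, and 1 with no filter on low values, with scaling by median ratios or with quantile normalization. Leaving out 1 library at a time gave 0 to 3 of these and 2 to 4 of the LINC loci higher in that comparison. Other long noncoding RNAs lower in FSB than in F numbered 4, but 1 with no filter and 1 to 4 with 1 library left out. With no filter, adjusted p-values (limma) in F_FSB minus FSB were 0.0633 for LINC00263 and 0.0775 for LINC00478. With a pseudocount of 0.1, the log2 change of LINC00478 in F_FSB minus FSB was 1.31. LINC00476 passed in F_FSB minus FSB in a fit of those groups alone (adjusted p = 0.0346 with limma), with no mean-variance trend (0.0485), and without F replicate 1 (0.027), F replicate 2 (0.0404) or F_FSB replicate 3 (0.0394), and LINC00152 passed in FSB minus F without F replicate 1 (adjusted p = 0.0384 with limma). The cause of these moves was not tested. Same-numbered cultures of different groups had correlations of their deviations from group means of -0.14 to 0.29. For cultures with different numbers the range was -0.23 to 0.13. With 3 cultures per group these overlapping ranges cannot show whether same-numbered cultures share more than a number. With the replicate block, LINC loci higher in FSB than in F numbered 3, LINC00152 being added (adjusted p = 0.0464 with limma), and other long noncoding RNAs lower in FSB numbered 2. Fragment counts are not in the tables, so the depth behind low loci such as LINC00173 is unknown.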
